A study of Arabidopsis thaliana with 27 samples.

Results

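GR1, SAPX and ATMDAR2 are 3 Arabidopsis genes for enzymes that remove hydrogen peroxide through ascorbate and glutathione, and their transcript levels were followed across all 9 groups of the study. They were chosen by name and were found by gene ID as 3 of the 13513 array features paired with a single gene, among 22746 features tested. GR1 (AT3G24170, probe set 257252_at) encodes a glutathione reductase, SAPX (AT4G08390, probe set 255142_at) the stromal ascorbate peroxidase and ATMDAR2 (AT5G03630, probe set 250916_at) a monodehydroascorbate reductase. Each of them was measured by 1 probe set. The symbol GR1 is also in use for AT3G52115, an unrelated gene of the DNA damage response, and all GR1 values here are those of the glutathione reductase AT3G24170.

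The study asked what H2O2 formed in plastids or in peroxisomes does to gene expression. The GO5 plants express glycolate oxidase in their chloroplasts, where the enzyme turns glycolate from photorespiration into glyoxylate and H2O2. The cat2 plants carry the allele cat2-2 (Salk line N576998) and have 10 to 15% of the wild-type catalase activity, so that less of the H2O2 formed by photorespiration in peroxisomes is broken down. The wild type (WT) was Col-0. The promoter of the GO5 transgene was not given in the sources used here, and each modified genotype was represented by 1 line, so line and genotype cannot be told apart. All plants grew in soil at 3000 ppm CO2 with 75 µmol quanta m-2 s-1 for 16 h of light and 8 h of dark, at 22 °C by day and 18 °C by night. After 3 weeks, whole rosettes were taken 8 h after a move to 380 ppm CO2 (8 h ambient), after 8 h of further growth at 3000 ppm (8 h high) or at the time of the move (0 h). There were 3 biological replicates per group, each of 2 pooled rosettes and hybridised to 1 array. The clock times of the harvests were not given in the sources used here, so time after the move and time of day cannot be told apart.

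Ascorbate peroxidases reduce H2O2 to water with ascorbate, which is oxidised to monodehydroascorbate. Monodehydroascorbate reductases return this radical to ascorbate with NADH or NADPH. Any radical that is not caught in this way forms dehydroascorbate, which is reduced with glutathione, and glutathione reductase then restores glutathione with NADPH. In leaves the cycle runs in several compartments: SAPX works in the chloroplast stroma and is also sent to mitochondria, GR1 in the cytosol and peroxisomes, and ATMDAR2 in the cytosol. High CO2 suppresses photorespiration, and the move to ambient CO2 allows it.

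All values are log2 signals as the authors deposited them, so a difference of 1 is a 2-fold change of signal. Array medians lay between 5.28 and 5.52, and the mean signals of GR1 (8.95), SAPX (8.96) and ATMDAR2 (9.13) over the 27 arrays lay at percentiles 92.4, 92.5 and 93.4 of all features. Signals of different probe sets are not set against each other. Of 9 rosette marker genes 2 were measured: RCA, the activase of Rubisco, had group means of 12.74 to 13.35 and PORB, a chlorophyll synthesis enzyme, of 8.18 to 11.51. Of 7 root markers 2 were measured, the beta-glucosidase PYK10 at 10.41 to 11.26 and the root hair expansin EXPA7 at 2.49 to 2.82. No marker listed for pollen, seeds or senescing leaves is analysed here. In whole rosettes, fewer cells of a type and less RNA per cell cannot be told apart. The genes for catalase and glycolate oxidase are not analysed here. GAPDH control probe sets at the 3' and 5' ends, a measure of RNA quality, differed by 2.12 ± 0.61 log2 in WT at 8 h ambient and by 1.49 to 2.09 in the means of the other 8 groups (n = 3 each). The WT ambient arrays also had the widest replicate spread, with a median SD over features of 0.237 against 0.122 to 0.172 elsewhere. WT ambient replicate 1 and cat2 ambient replicate 3 stood apart from their groups in an earlier analysis of these data. Their mean correlations with their groups were 0.969 and 0.982. WT ambient replicates 2 and 3 had 0.974 and 0.98, and cat2 ambient replicates 1 and 2 had 0.989 and 0.987. By this measure the cat2 array was above every WT ambient array. Values at 8 h ambient without WT ambient replicate 1 and cat2 ambient replicate 3 are given beside the results whose call this changes and beside some others.

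**Figure D1:**
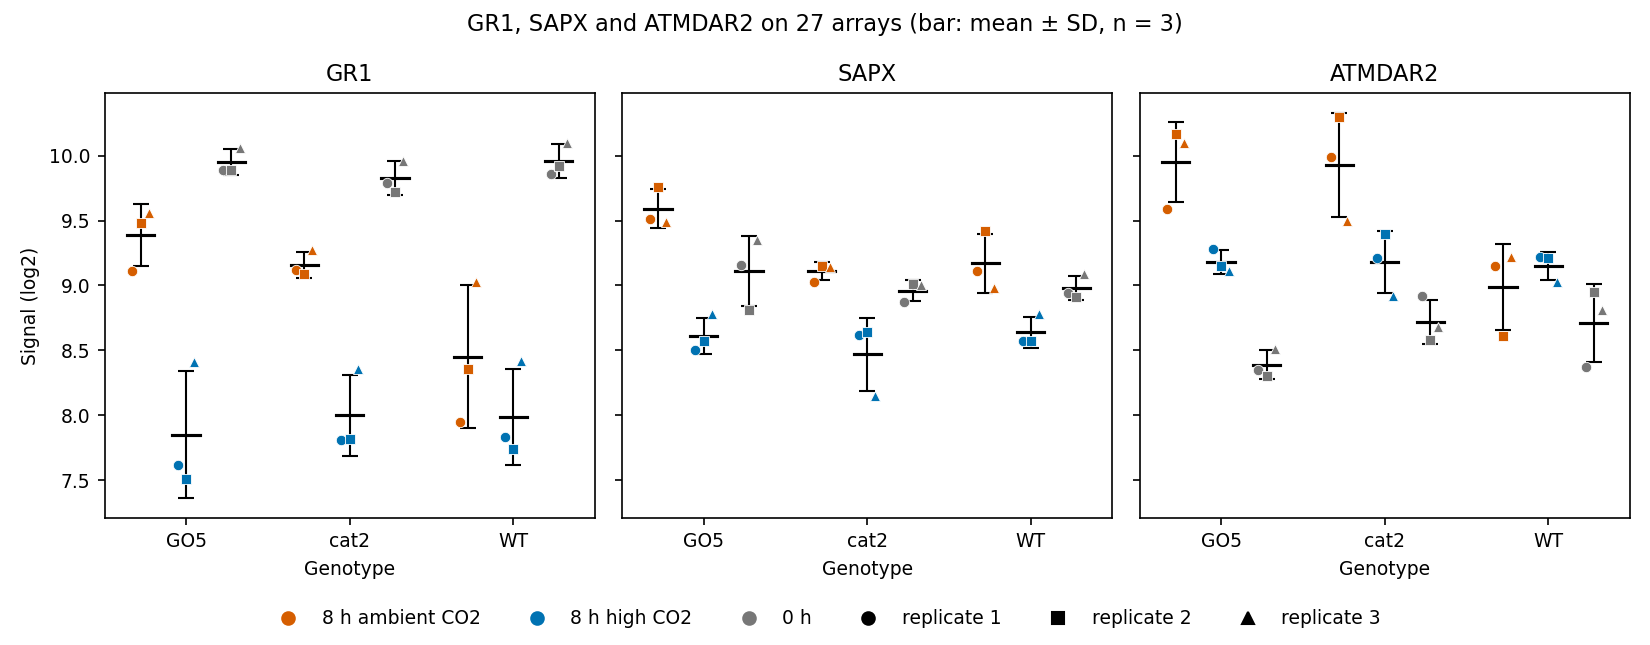
Log2 signal (vertical axis) of GR1, SAPX and ATMDAR2 on each of the 27 arrays, by genotype and by condition, with horizontal bars for group means and error bars for SD (n = 3). GR1 is highest at 0 h in all 3 genotypes (means of 9.83 to 9.96), whereas ATMDAR2 is highest in GO5 and cat2 at 8 h ambient (means of 9.95 and 9.93).

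GR1 had the widest range of the 3 genes. Its group means spanned 2.11 log2, from 9.96 ± 0.13 in WT at 0 h to 7.85 ± 0.49 in GO5 at 8 h high (SD, n = 3 each). The order of its means was WT, GO5 and cat2 at 0 h, GO5, cat2 and WT at 8 h ambient, then cat2, WT and GO5 at 8 h high. Neighbours in this order did not overlap between cat2 at 0 h and GO5 at 8 h ambient (difference of means 0.44) or between cat2 and WT at 8 h ambient (0.71). All other neighbours overlapped. Here and below, overlap describes the 3 arrays of each group and is not a test. The share of all features without overlap was not counted. SAPX spanned 1.12 log2, from 9.59 ± 0.15 in GO5 at 8 h ambient to 8.47 ± 0.28 in cat2 at 8 h high. After GO5, its order ran through WT and cat2 at 8 h ambient, GO5, WT and cat2 at 0 h, and WT, GO5 and cat2 at 8 h high. Its arrays separated GO5 from WT at 8 h ambient (0.42) and cat2 at 0 h from WT at 8 h high (0.32), and the other neighbours overlapped. ATMDAR2 spanned 1.57 log2, and GO5 (9.95 ± 0.31) and cat2 (9.93 ± 0.40) at 8 h ambient stood at its top. Below them came cat2, GO5 and WT at 8 h high, WT at 8 h ambient, and then cat2, WT and GO5 at 0 h, with the lowest mean of 8.39 ± 0.11 in GO5. The single gap in its order lay below the top pair, at 0.75 between cat2 at 8 h ambient and cat2 at 8 h high.

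The groups differed for each of the 3 genes in a moderated F test over all 9 groups in limma. F was 26.9 for GR1 (adjusted p = 8.28e-08), 14 for ATMDAR2 (adjusted p = 1.04e-05) and 11.4 for SAPX (adjusted p = 4.32e-05), where 41% of all features passed. The test of whether genotypes differed in their response to the conditions was not passed by any of them: ATMDAR2 had an F of 6.38 (adjusted p = 0.0644), GR1 of 3.35 (adjusted p = 0.275) and SAPX of 1.53 (adjusted p = 0.656), where 1.97% of all features passed.

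GO5, the line with H2O2 of plastid origin, was compared with WT at 8 h ambient. All 3 transcripts were higher in GO5, ATMDAR2 by 1.95-fold, GR1 by 1.91-fold and SAPX by 1.34-fold. Of all features, 8.59% were called higher and 9.85% lower in this comparison (6.88% and 15% after median centring). SAPX, the peroxidase, had 9.51, 9.76 and 9.49 in GO5 and 9.11, 9.42 and 8.98 in WT (replicates 1 to 3). The lowest GO5 array stood only just above the highest WT array. Its difference was 0.42 ± 0.14 (SE, n = 3 each, adjusted p = 0.0454). ATMDAR2 had 9.59, 10.17 and 10.10 in GO5, against 9.15, 8.61 and 9.22 in WT. No array of one genotype reached into the other, and the difference was 0.96 ± 0.20 (95% interval 0.55 to 1.38, adjusted p = 0.00216). GR1 had 9.11, 9.48 and 9.56 in GO5, against 7.95, 8.36 and 9.03 in WT. The WT arrays were spread over more than 1 log2 unit and the third of them came close to the lowest GO5 array. The GR1 difference was 0.94 ± 0.24 (95% interval 0.43 to 1.44, adjusted p = 0.00977).

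The GAPDH measure moved with this comparison, at 1.49 ± 0.15 in GO5 and 2.12 ± 0.61 in WT (SD, n = 3 each). With that measure as a covariate the differences were 0.79 for ATMDAR2 (adjusted p = 0.0276), 0.75 for GR1 (adjusted p = 0.0855) and 0.62 for SAPX (adjusted p = 0.0122). The SAPX call was lost without GO5 ambient replicate 1 (0.46, adjusted p = 0.0564), 2 (0.34, adjusted p = 0.209) or 3 (0.47, adjusted p = 0.0547) and without WT ambient replicate 1 (0.39, adjusted p = 0.118) or 3 (0.33, adjusted p = 0.156). For GR1 it was lost without WT ambient replicate 1 (0.69, adjusted p = 0.0697) or GO5 ambient replicate 2 (0.89, adjusted p = 0.0506), whereas ATMDAR2 passed whichever array was left out. Without the arrays that stood apart the differences were 1.04 for ATMDAR2 (adjusted p = 0.00198), 0.69 for GR1 (adjusted p = 0.0726) and 0.39 for SAPX (adjusted p = 0.124). A fit to the compared arrays alone called none of the 3 genes (adjusted p = 0.112 for ATMDAR2, 0.166 for GR1 and 0.249 for SAPX).

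For H2O2 of peroxisomes, cat2 was compared with WT at 8 h ambient. ATMDAR2 was 1.91-fold higher in cat2, while GR1 and SAPX did not pass the threshold. Few features passed at all in this comparison, 0.514% higher and 0.189% lower (0.519% and 0.101% after median centring). SAPX had 9.03, 9.15 and 9.14 in cat2 and 9.11, 9.42 and 8.98 in WT, and the groups overlapped. The interval of its difference ran from -0.36 to 0.24 (estimate -0.06, adjusted p = 0.9). ATMDAR2 had 9.99, 10.30 and 9.50 in cat2, all above the WT values of 9.15, 8.61 and 9.22. Its difference was 0.93 ± 0.20 (95% interval 0.52 to 1.35, adjusted p = 0.0273). GR1 stood at 9.12, 9.09 and 9.27 in cat2 and was above each WT array of 7.95, 8.36 and 9.03. The difference of 0.71 ± 0.24 (95% interval 0.20 to 1.21) had a p of 0.00809 and an adjusted p of 0.186.

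Leaving out cat2 ambient replicate 1 (0.90, adjusted p = 0.148) or 2 (0.75, adjusted p = 0.188) ended the ATMDAR2 call, as did the GAPDH measure as a covariate (0.79, adjusted p = 0.0855), which was 1.6 ± 0.11 in cat2 and 2.12 ± 0.61 in WT. GR1 passed without WT ambient replicate 3, the highest of the WT arrays (1.00, adjusted p = 0.0344). It also passed with a block for replicate number (0.71, adjusted p = 0.0329). Without the arrays that stood apart ATMDAR2 differed by 1.23 (adjusted p = 0.0049) and GR1 by 0.40 (adjusted p = 0.494). A fit to the compared arrays alone did not call ATMDAR2 (0.93, adjusted p = 0.908). The GO5 and cat2 comparisons share the same 3 WT arrays.

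GO5 was then set against cat2 at 8 h ambient to compare the lines directly. SAPX was higher in GO5, by 0.48 ± 0.14 or 1.4-fold (95% interval 0.18 to 0.78, adjusted p = 0.041), with 9.51, 9.76 and 9.49 in GO5 and 9.03, 9.15 and 9.14 in cat2. The lowest SAPX array of GO5, 9.49, stood above the highest of cat2, 9.15, which is a description without a test. Of all features 5.32% were called higher and 2.88% lower in GO5 than in cat2 (median centring turns the majority, to 3.98% and 4.3%). ATMDAR2 differed by 0.03 with an interval from -0.39 to 0.44 (adjusted p = 0.967) and GR1 by 0.23 with an interval from -0.27 to 0.73 (adjusted p = 0.681), and the arrays of both genes overlapped. These intervals leave room for differences of up to 0.44 and 0.73 log2, and without both arrays that stood apart ATMDAR2 differed by -0.19 (adjusted p = 0.663). The SAPX call was lost without GO5 ambient replicate 2 (0.40, adjusted p = 0.256) or 3 (0.53, adjusted p = 0.0558) and without cat2 ambient replicate 1 (0.44, adjusted p = 0.147), 2 (0.50, adjusted p = 0.0702) or 3 (0.50, adjusted p = 0.0764), and without both arrays that stood apart (0.50, adjusted p = 0.0619).

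**Figure D2:**
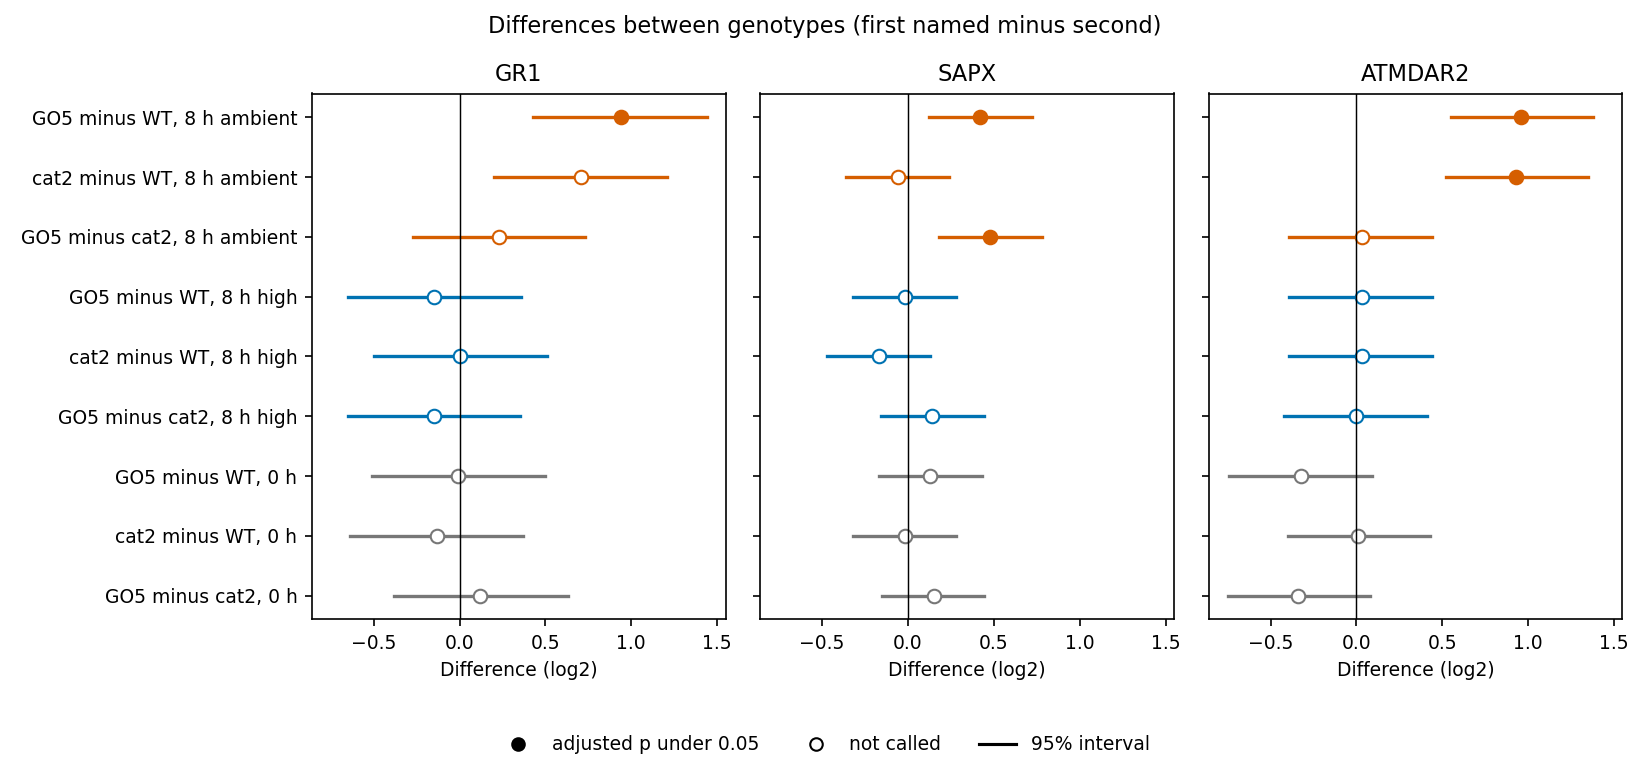
Differences between genotypes in log2 (horizontal axis, first named minus second) for the 3 genes at 8 h ambient, 8 h high and 0 h, with 95% intervals from limma. Filled points have an adjusted p under 0.05, and they are found among the comparisons at 8 h ambient, up to 0.96 for ATMDAR2 in GO5 minus WT.

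Without the move to ambient CO2 no genotype difference passed for any of the 3 genes. At 8 h high the estimates lay between -0.17 (SAPX, cat2 minus WT) and 0.14 (SAPX, GO5 minus cat2), with an adjusted p of 1.0 in each case. The ATMDAR2 arrays at 8 h high read 9.28, 9.15 and 9.11 in GO5, 9.21, 9.40 and 8.92 in cat2 and 9.22, 9.21 and 9.03 in WT, which is close to complete overlap. ATMDAR2 in GO5 minus WT had an interval from -0.39 to 0.44 there, and differences of up to that size lie within it. At high CO2 0.0132% of all features passed in GO5 minus WT, 0.00879% in cat2 minus WT and 0.0176% in GO5 minus cat2. These are 3, 2 and 4 features, and leaving out 1 array gave up to 16 in GO5 minus WT and in GO5 minus cat2 (without GO5 high CO2 replicate 2) and up to 12 in cat2 minus WT (without WT high CO2 replicate 3). At 0 h the corresponding share was 0.00879% in each of the 3 comparisons. The largest estimates at 0 h were those of ATMDAR2, which had 8.35, 8.30 and 8.51 in GO5, 8.92, 8.58 and 8.68 in cat2 and 8.37, 8.95 and 8.81 in WT. GO5 lay below cat2 on every array but not below WT. The differences were -0.34 for GO5 minus cat2 (95% interval -0.75 to 0.08, adjusted p = 1.0) and -0.32 for GO5 minus WT (95% interval -0.74 to 0.09, adjusted p = 1.0). GR1 and SAPX differed at 0 h by at most 0.15 in either direction.

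How each genotype responded to the change of CO2 was read from 8 h ambient against 8 h high. In GO5 and in cat2 all 3 transcripts were higher at ambient CO2, and in WT only SAPX passed. The shares of all features called higher at ambient CO2 were 7.69% in GO5, 5.16% in cat2 and 2.78% in WT, and 9.99%, 6.11% and 1.99% were called lower. After median centring 5.42% were higher and 4.28% lower in cat2, which turns the majority, and 3.62% and 1.39% in WT. SAPX in GO5 had 9.51, 9.76 and 9.49 at ambient and 8.50, 8.57 and 8.78 at high CO2. This 1.97-fold difference (0.98 ± 0.14, adjusted p = 6.68e-05) was the largest of the 3 SAPX estimates. In cat2 SAPX had 9.03, 9.15 and 9.14 at ambient and 8.62, 8.64 and 8.15 at high CO2, a 1.55-fold difference (0.64 ± 0.14, adjusted p = 0.00569). WT arrays of SAPX read 9.11, 9.42 and 8.98 at ambient against 8.57, 8.57 and 8.78 at high CO2, a 1.44-fold difference (0.53 ± 0.14, adjusted p = 0.0352). SAPX was thus called higher at ambient CO2 in all 3 genotypes, and its arrays did not overlap. The separation of arrays is a description here, since the share of all features that separate was not counted.

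ATMDAR2 was called higher at ambient CO2 in GO5 and cat2. In the main limma fit its response was not called different from that of WT in GO5 (adjusted p = 0.0733) or cat2 (adjusted p = 0.287). In GO5 ATMDAR2 had 9.59, 10.17 and 10.10 at ambient and 9.28, 9.15 and 9.11 at high CO2, a 1.71-fold difference (0.78 ± 0.20, adjusted p = 0.009). The cat2 arrays had 9.99, 10.30 and 9.50 at ambient and 9.21, 9.40 and 8.92 at high CO2, a 1.68-fold difference (0.75 ± 0.20, adjusted p = 0.0179). Neither pair of groups overlapped, though the lowest ambient array of cat2 came close to the highest array at high CO2. WT values overlapped, at 9.15, 8.61 and 9.22 at ambient and 9.22, 9.21 and 9.03 at high CO2 (-0.16, 95% interval -0.57 to 0.25, adjusted p = 0.72). The lowest ATMDAR2 value of WT at ambient CO2, replicate 2, came from the array with the highest GAPDH 3'/5' difference of its group, 2.82. That array also had the highest SAPX value of its group. With the GAPDH measure as a covariate the WT differences were -0.15 for ATMDAR2 (adjusted p = 0.728) and 0.52 for SAPX (adjusted p = 0.0237). Without both arrays that stood apart the ATMDAR2 difference was 0.96 in cat2 (adjusted p = 0.00229) and -0.24 in WT (adjusted p = 0.693).

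GR1 showed the largest fold of the 3 genes in this comparison, 2.91-fold in GO5 and 2.24-fold in cat2. Its GO5 arrays had 9.11, 9.48 and 9.56 at ambient and 7.62, 7.51 and 8.41 at high CO2 (1.54 ± 0.24, adjusted p = 0.000129). In cat2 it had 9.12, 9.09 and 9.27 at ambient and 7.81, 7.82 and 8.36 at high CO2 (1.16 ± 0.24, adjusted p = 0.00303). Ambient arrays were above high CO2 arrays without exception in both genotypes. The GAPDH difference was 1.33 to 1.62 at ambient and 1.76 to 1.89 at high CO2 in GO5, without overlap, and 1.47 to 1.68 at ambient and 1.66 to 1.84 at high CO2 in cat2. With it as a covariate the GR1 differences were 1.44 in GO5 (adjusted p = 0.000667) and 1.12 in cat2 (adjusted p = 0.005), and SAPX and ATMDAR2 also kept their calls in both genotypes. WT arrays of GR1 had 7.95, 8.36 and 9.03 at ambient and 7.83, 7.74 and 8.42 at high CO2 and overlapped (0.46, 95% interval -0.05 to 0.96, adjusted p = 0.304). The WT estimate ran from 0.16 without ambient replicate 3 to 0.705 without ambient replicate 1, which is also its value without both arrays that stood apart. The GR1 calls in GO5 and cat2 held whichever array was left out, and without both arrays that stood apart the cat2 difference was 1.11 (adjusted p = 0.00419).

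Several calls of SAPX and ATMDAR2 were lost when 1 array was left out, some of them with estimates close to the full fit. The SAPX call in WT was lost without WT ambient replicate 1 (0.56, adjusted p = 0.0751) or 2 (0.41, adjusted p = 0.0813) or WT high CO2 replicate 1 (0.50, adjusted p = 0.119) or 2 (0.50, adjusted p = 0.12), and without both arrays that stood apart (0.56, adjusted p = 0.0799). In cat2, SAPX did not pass without high CO2 replicate 3 (0.48, adjusted p = 0.0523), and ATMDAR2 did not pass without that array (0.62, adjusted p = 0.106) or ambient replicate 1 (0.72, adjusted p = 0.0721) or 2 (0.56, adjusted p = 0.137). In GO5, ATMDAR2 did not pass without ambient replicate 2 (0.67, adjusted p = 0.0611).

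Whether these responses differed between genotypes was tested as a difference of 2 differences. None of the 3 genes passed in any pair of genotypes in the fit to all 27 arrays with 1 mean per group. For GO5 minus WT the response of GR1 was larger by 1.08 ± 0.34 (95% interval 0.37 to 1.80, adjusted p = 0.0888), that of ATMDAR2 by 0.93 ± 0.28 (95% interval 0.35 to 1.52, adjusted p = 0.0733) and that of SAPX by 0.45 ± 0.20 (95% interval 0.02 to 0.87, adjusted p = 0.25). In that test 2.78% of all features passed. For cat2 minus WT the estimates were 0.91 for ATMDAR2 (95% interval 0.32 to 1.49, adjusted p = 0.287), 0.70 for GR1 (-0.01 to 1.42, adjusted p = 0.455) and 0.11 for SAPX (-0.32 to 0.53, adjusted p = 0.884), with 0.0967% of all features passing. GO5 minus cat2 gave 0.38 for GR1 (-0.33 to 1.09, adjusted p = 0.847), 0.34 for SAPX (-0.08 to 0.76, adjusted p = 0.695) and 0.03 for ATMDAR2 (-0.56 to 0.61, adjusted p = 0.994), with 0.492% passing. A larger response in GO5 or cat2 than in WT was therefore not called for these genes after adjustment over all features. GR1 in GO5 minus WT passed in 3 of 20 alternatives. These were the fits without WT ambient replicate 3 (1.38, adjusted p = 0.0218), without GO5 high CO2 replicate 3 (1.37, adjusted p = 0.0299) and with a block for replicate number (1.08, adjusted p = 0.01). ATMDAR2 in the same pair passed without GO5 ambient replicate 1 (1.11, adjusted p = 0.0254). Without the arrays that stood apart ATMDAR2 passed in GO5 minus WT (1.01, adjusted p = 0.0466) and in cat2 minus WT (1.20, adjusted p = 0.0493), while GR1 differed by 0.84 (adjusted p = 0.191) and 0.40 (adjusted p = 0.599) in the same pairs. Of the arrays left out there, cat2 ambient replicate 3 had the lowest ATMDAR2 value of its group, 9.5.

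**Figure D3:**
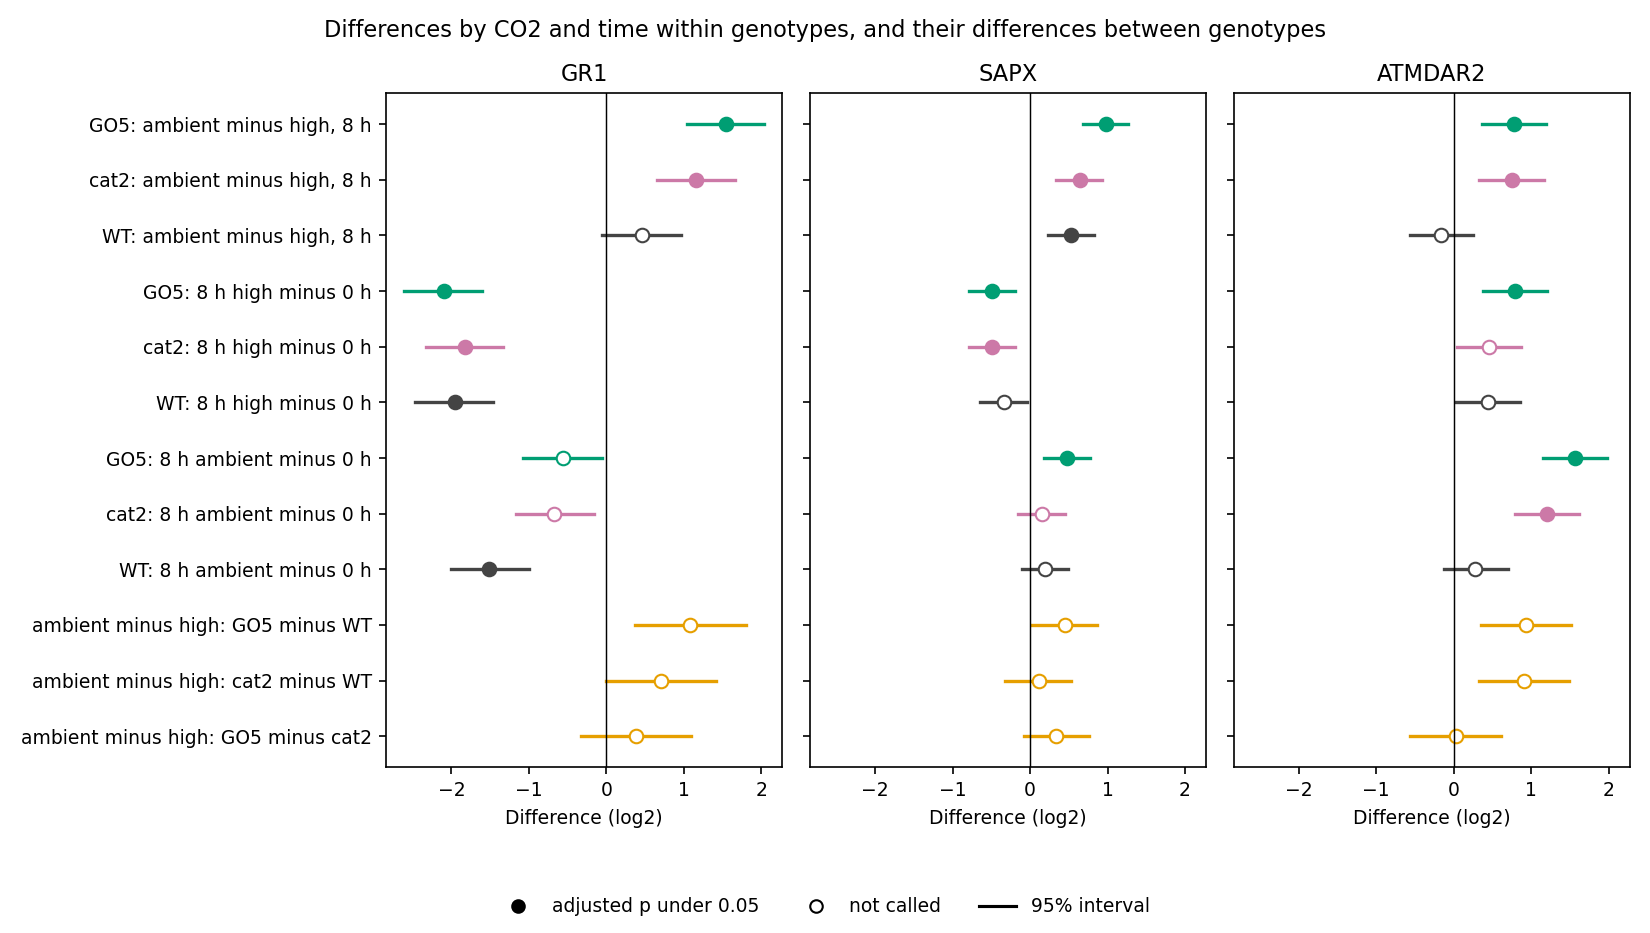
Differences in log2 (horizontal axis) for the 3 genes between conditions within each genotype, and differences of the CO2 responses between genotypes in the lowest 3 rows, with 95% intervals from limma. Filled points have an adjusted p under 0.05. GR1 at 8 h high minus 0 h lies between -2.10 and -1.83 in all 3 genotypes, and ATMDAR2 lies above 0 in the same comparison.

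Passage of 8 h at high CO2 was read from 8 h high against 0 h. GR1 fell in all 3 genotypes, to signals 4.29-fold lower in GO5, 3.55-fold lower in cat2 and 3.9-fold lower in WT. SAPX fell in GO5 and cat2 and ATMDAR2 rose in GO5. Of all features, 7% were called higher and 6.87% lower in GO5, 6.62% and 5.92% in cat2 and 6.88% and 6.5% in WT. After median centring the split turned to 5.61% higher and 8.28% lower in GO5, to 5.64% and 6.69% in cat2 and to 5.22% and 8.17% in WT. The GR1 arrays of GO5 had 7.62, 7.51 and 8.41 at 8 h high, against 9.89, 9.89 and 10.06 at 0 h (-2.10 ± 0.24, adjusted p = 2.28e-06). In cat2 GR1 had 7.81, 7.82 and 8.36 at 8 h high, against 9.79, 9.72 and 9.96 at 0 h (-1.83 ± 0.24, adjusted p = 1.51e-05). WT arrays had 7.83, 7.74 and 8.42 at 8 h high, against 9.86, 9.92 and 10.10 at 0 h (-1.96 ± 0.24, adjusted p = 6.13e-06). In each genotype the gap between the groups was wider than the spread within either. The GAPDH difference was 1.76 to 1.89 in GO5, 1.66 to 1.84 in cat2 and 1.87 to 2.45 in WT at 8 h high, against 1.42 to 1.58 in GO5, 1.45 to 1.7 in cat2 and 1.44 to 1.61 in WT at 0 h, with overlap in cat2 alone. With it as a covariate GR1 differed by -2.002 in GO5 (adjusted p = 1.93e-05), -1.78 in cat2 (adjusted p = 3.3e-05) and -1.8 in WT (adjusted p = 0.000317), and SAPX was called in WT too (-0.52, adjusted p = 0.0495). Replicate 3 was the highest GR1 array in each of the 9 groups.

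SAPX had 8.50, 8.57 and 8.78 at 8 h high and 9.16, 8.81 and 9.35 at 0 h in GO5 (-0.49 ± 0.14, adjusted p = 0.0228). The cat2 values were 8.62, 8.64 and 8.15 at 8 h high and 8.87, 9.01 and 9.0 at 0 h (-0.49 ± 0.14, adjusted p = 0.0262). In WT they were 8.57, 8.57 and 8.78 at 8 h high and 8.94, 8.91 and 9.09 at 0 h (-0.34, 95% interval -0.64 to -0.04, adjusted p = 0.132). All 3 genotypes had their SAPX arrays at 8 h high below those at 0 h. ATMDAR2 had 9.28, 9.15 and 9.11 at 8 h high and 8.35, 8.30 and 8.51 at 0 h in GO5, a 1.73-fold increase (0.79 ± 0.20, adjusted p = 0.00844). Its values in cat2, 9.21, 9.40 and 8.92 at 8 h high and 8.92, 8.58 and 8.68 at 0 h, gave a difference of 0.46 (95% interval 0.04 to 0.87, adjusted p = 0.16). In WT, 9.22, 9.21 and 9.03 at 8 h high and 8.37, 8.95 and 8.81 at 0 h gave 0.44 (95% interval 0.03 to 0.86, adjusted p = 0.168). The arrays at 8 h high were thus at or above those at 0 h in each genotype, and the call was made in GO5.

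The SAPX calls over time were lost in several fits that left out 1 array, some of them with estimates close to the full fit. In GO5 the call was lost without 0 h replicate 1 (-0.47, adjusted p = 0.0741) or 3 (-0.37, adjusted p = 0.147) or 8 h high replicate 1 (-0.44, adjusted p = 0.104) or 2 (-0.47, adjusted p = 0.0815). In cat2 it was lost without 0 h replicate 2 (-0.46, adjusted p = 0.0887) or 3 (-0.47, adjusted p = 0.083) or 8 h high replicate 3 (-0.33, adjusted p = 0.185).

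The net change over 8 h at ambient CO2 was read from 8 h ambient against 0 h, which share the 0 h arrays with the comparison above. ATMDAR2 rose 2.96-fold in GO5 (1.57 ± 0.20, adjusted p = 3.43e-06) and 2.3-fold in cat2 (1.20 ± 0.20, adjusted p = 0.000121). In WT it differed by 0.28 with overlapping arrays (95% interval -0.13 to 0.70, adjusted p = 0.381). Of all features, 12.8% were called higher and 16.6% lower in GO5, 9.92% and 13.1% in cat2 and 9.44% and 9.37% in WT. After median centring 10.9% were higher and 21.5% lower in GO5, 9.75% and 12.9% in cat2 and 9.05% and 9.48% in WT. The lowest ATMDAR2 array at 8 h ambient, 9.59 in GO5 and 9.50 in cat2, was above the highest at 0 h, 8.51 in GO5 and 8.92 in cat2. GR1 fell in WT, to a signal 2.84-fold lower (-1.51 ± 0.24, adjusted p = 0.000106). The estimates in GO5 (-0.56, 95% interval -1.07 to -0.06, adjusted p = 0.0884) and cat2 (-0.67, 95% interval -1.17 to -0.16, adjusted p = 0.0507) were smaller and missed the threshold. The GR1 arrays at 8 h ambient lay below those at 0 h in all 3 genotypes, which is a description without a test. GR1 was called in 3 of 14 alternatives in GO5 (adjusted p of 0.0088 to 0.273) and in 7 of 14 in cat2 (adjusted p of 0.0032 to 0.151). Without the arrays that stood apart its differences were -0.72 in cat2 (adjusted p = 0.0358) and -1.26 in WT (adjusted p = 0.00144), and ATMDAR2 in cat2 differed by 1.42 (adjusted p = 2.54e-05). SAPX rose in GO5 by 1.4-fold (0.48 ± 0.14, adjusted p = 0.0137), a call that was lost without 0 h replicate 2 (0.34, adjusted p = 0.113) or 8 h ambient replicate 2 (0.40, adjusted p = 0.0828). In cat2 SAPX differed by 0.15 (95% interval -0.15 to 0.45, adjusted p = 0.549) and in WT by 0.19 (95% interval -0.11 to 0.49, adjusted p = 0.428).

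The remainder of the ascorbate, glutathione and peroxide system was taken from a list of 57 other genes, of which 15 were measured by a probe set paired with 1 gene. These were the second glutathione reductase GR2, the thylakoid ascorbate peroxidase TAPX, 4 genes of ascorbate synthesis (VTC4, GLDH, GALDH and GME), 5 of peroxiredoxins and their partners (2CPA, PRXIIE, PRXIIF, SRX and NTRC) and 4 of NADPH supply (PGD1, PGD2, PGD3 and ICDH). None of the listed dehydroascorbate reductases, superoxide dismutases, glutathione peroxidase-like genes or glutathione synthesis genes is analysed here. Listed genes without a probe set paired in this way may still be on the array.

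In GO5 minus WT at 8 h ambient 1 of the 15 was higher and 2 were lower, a share near the 8.59% higher and 9.85% lower among all features. PGD3, a 6-phosphogluconate dehydrogenase that forms NADPH, had 9.83, 10.36 and 9.69 in GO5 and 8.31, 8.47 and 8.12 in WT (1.66 ± 0.14, 3.16-fold, adjusted p = 1.14e-07). It was also higher in GO5 than in cat2, where it had 8.2, 8.19 and 8.24 (1.75 ± 0.14, adjusted p = 9.41e-08). GO5 stood apart from both other genotypes by more than 1 log2 unit for this gene. GALDH, the L-galactose dehydrogenase of ascorbate synthesis, fell by 0.68 in GO5 against WT (adjusted p = 0.00191) and GLDH, which makes ascorbate in its last step, fell by 0.60 (adjusted p = 0.00125). The list had a median difference of -0.07, against -0.06 over all features. GR2, the glutathione reductase of chloroplasts and mitochondria, differed by -0.02 ± 0.18 (adjusted p = 0.961) and TAPX by -0.44 ± 0.17 (adjusted p = 0.0703). The GO5 arrays of both overlapped with WT. Those of GR1 and SAPX did not, for SAPX only by 9.49 against 9.42. This is a description without a test, since the share of all features that separate was not counted.

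In cat2 minus WT at 8 h ambient none of the 15 passed in limma, with a median of -0.09 against -0.03 over all features. Of all features only 0.514% were called higher and 0.189% lower there. GR2 differed by -0.12 ± 0.18 (adjusted p = 0.825) and TAPX by -0.31 ± 0.17 (adjusted p = 0.413). In GO5 minus cat2, 1 of the 15, PGD3, was higher and none was lower, where 5.32% of all features were higher and 2.88% lower. The list median was -0.13 against -0.03 over all features. Neither at 8 h high nor at 0 h was any of the 15 called between genotypes, where at most 0.0176% of all features passed.

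Between ambient and high CO2 at 8 h the list gave 1 higher (PGD3) and 3 lower genes (GLDH, GALDH and the NADP-dependent isocitrate dehydrogenase ICDH) in GO5, 1 higher (PGD2) and none lower in cat2, and none higher and 1 lower (ICDH) in WT. Among all features 7.69% were higher and 9.99% lower in GO5, 5.16% and 6.11% in cat2 and 2.78% and 1.99% in WT. Its medians were -0.19, -0.07 and 0.07 in GO5, cat2 and WT, against -0.04, -0.05 and 0.0 over all features. PGD3 rose by 1.65 ± 0.14 in GO5 (adjusted p = 1.08e-07). The difference of its responses passed in GO5 minus WT (1.52 ± 0.20, adjusted p = 0.000292) and in GO5 minus cat2 (1.64 ± 0.20, adjusted p = 0.000222). For GALDH that difference was -0.72 ± 0.20 in GO5 minus WT (adjusted p = 0.0494).

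GR2 was lower at 8 h high than at 0 h in all 3 genotypes, as was GR1. It had 9.03, 8.91 and 9.32 at 8 h high in GO5, against 10.01, 10.04 and 9.89 at 0 h (-0.89 ± 0.18, adjusted p = 0.00139). The difference was -0.65 ± 0.18 in cat2 (adjusted p = 0.0181) and -0.82 ± 0.18 in WT (adjusted p = 0.00315). GALDH was higher at 8 h high than at 0 h, by 1.08 ± 0.14 in GO5, 1.21 ± 0.14 in cat2 and 1.02 ± 0.14 in WT (adjusted p = 9.46e-06, 2.36e-06 and 2.17e-05). GME, an epimerase of ascorbate synthesis, and NTRC, the reductase of 2-Cys peroxiredoxins, were lower in GO5 and WT. Of the 15, 1 was therefore higher in each genotype, and 3, 1 and 3 were lower in GO5, cat2 and WT, where 6.62% to 7% of all features were higher and 5.92% to 6.87% lower. The list medians were -0.04, -0.04 and 0.0, against -0.02, 0.01 and 0.0 over all features. At 8 h ambient against 0 h, 2 were higher and 6 lower in GO5, 2 and 3 in cat2 and 2 and 2 in WT, with medians of -0.35, -0.17 and -0.01 against -0.06, -0.03 and 0.0 over all features. The shares of all features were 12.8% higher and 16.6% lower in GO5, 9.92% and 13.1% in cat2 and 9.44% and 9.37% in WT. TAPX fell by 0.55 in GO5 over that interval (adjusted p = 0.0149), where SAPX rose.

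**Figure D4:**
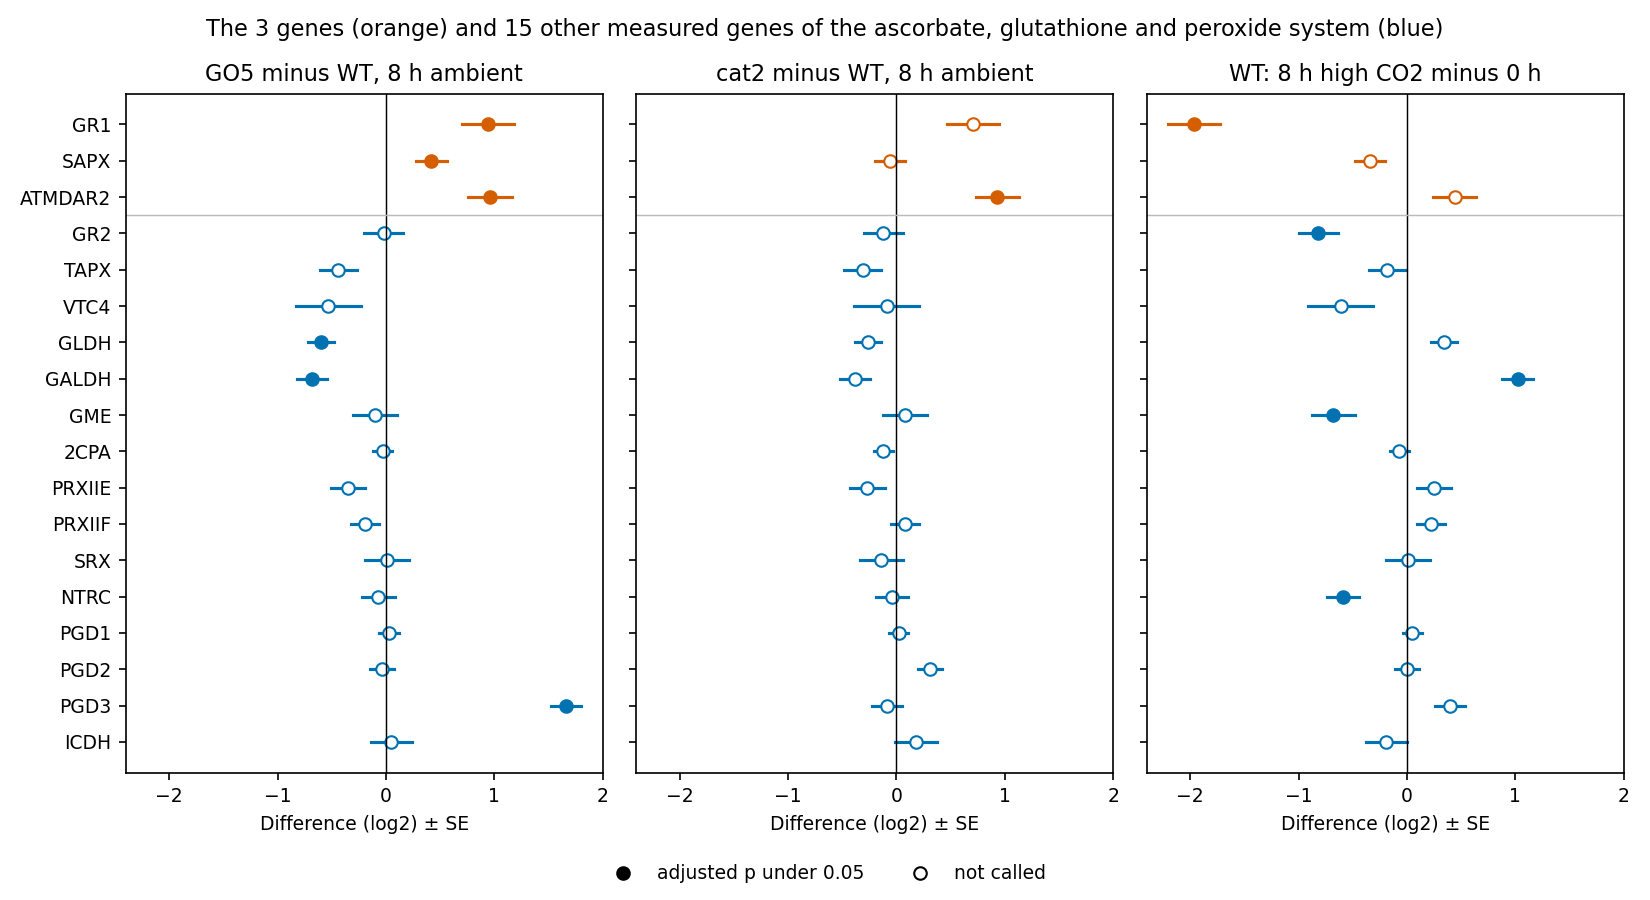
Log2 differences with SE (horizontal axis) of the 3 genes and the 15 other measured genes of the system in GO5 minus WT and cat2 minus WT at 8 h ambient and in WT at 8 h high minus 0 h. Filled points have an adjusted p under 0.05. PGD3 has the largest difference in GO5 minus WT (1.66), and GR1 and GR2 both lie below 0 in the comparison over time.

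The 3 genes did not share 1 pattern over the groups. Pearson correlations over the 9 group means were 0.63 between GR1 and SAPX, -0.28 between GR1 and ATMDAR2 and 0.30 between SAPX and ATMDAR2, and over the 27 arrays they were 0.55, -0.25 and 0.26. All points share the arrays, and these are descriptions without a test. The features with the pattern most like each gene were sought among 7347 single-gene features of at least the fortieth percentile of mean signal. For GR1 they were AT5G19850 (r = 0.992 over the 9 group means and 0.943 over the 27 arrays), AT3G19970 (0.988 and 0.774) and AT1G52870 (0.984 and 0.788). In WT, AT5G19850 had means of 6.22 at 8 h high and 8.01 at 0 h, and GR1 of 7.99 and 9.96. For SAPX they were AT5G06190 (0.974 and 0.806), SPPA (0.96 and 0.716) and AT1G49470 (0.951 and 0.542). For ATMDAR2 they were the aspartic protease APA1 (0.974 and 0.801), AT4G21580 (0.971 and 0.85) and AT3G54100 (0.967 and 0.732).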

How the data were processed

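Whole-rosette RNA of 27 samples was hybridised to 27 1-colour arrays. The deposited values are log2 signals, 1 for each probe set and array, that the authors made; the submitters' processing notes name RMA, GCRMA, affy and R 2.15.0, and which of RMA and GCRMA made the values was not settled. Values ran from 1.61 to 13.59, and 21.2% lay between 2 and 3. No further normalization was applied, and 0 value columns were left unmatched to a sample. Groups came from the labels. Of 22810 probe sets, 64 controls were left out and 22746 tested; 13513 are paired with 1 gene, 503 with several and 8730 with none. Loci and symbols come from RefSeq TAIR10.1 gene names.

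limma 3.58.1 in R 4.3.3 (lmFit, contrasts.fit, eBayes with default settings) was fitted to all 27 arrays with 1 mean per group and 21 contrasts, 18 between pairs of groups and 3 between CO2 responses. Tests were two-sided. P-values were adjusted by Benjamini-Hochberg over all features within each contrast, and an adjusted p under 0.05 was a call. They rest on the spread between biological replicates of 2 rosettes, with 1 variance per feature pooled over the 9 groups and moderated across features. A group with a wide spread, such as WT at 8 h ambient, was therefore judged by the same SE as the others. The number of arrays limits the precision.

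The named genes are the 3 members, called genes of the pathway list, GR2 and TAPX as the nearest relatives of GR1 and SAPX, and 3 most similar features per member. GR2 and TAPX are given in contrasts where they were not called as well, a choice made after their values were seen. The members, lists and alternatives were chosen with earlier results of these data known. Alternatives were quantile normalization, median centring, trend and robust variances, dim features left out (below percentile 40), a fit to the compared arrays alone, a block for replicate number, each array left out in turn, 2 arrays that stood apart left out, and the GAPDH 3'/5' difference as a covariate.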

Additional observations from a re-analysis of the deposited data

How the results depend on the processing

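Of 936 alternative values for 63 differences of the 3 genes, 53 lost a call and 19 gained one. No called value reversed, and 52 called in neither fit changed sign. Of 22 calls, 10 held under every alternative run: GR1 (GO5 and cat2) and SAPX (GO5) at ambient against high CO2, GR1 (all 3 genotypes) and ATMDAR2 (GO5) at 8 h high against 0 h, and GR1 (WT) and ATMDAR2 (GO5 and cat2) at 8 h ambient against 0 h. Detection above background was not measured. Causes were not tested.

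With quantile normalization SAPX lost its calls in cat2 at 8 h high against 0 h (-0.45, adjusted p = 0.0507) and in WT at ambient against high CO2 (0.50, adjusted p = 0.0558). Median centring, which moved GO5 minus WT at ambient by 0.10, ended the SAPX calls in GO5 minus WT (0.32, adjusted p = 0.113) and GO5 minus cat2 (0.41, adjusted p = 0.0824) and gave calls to GR1 at 8 h ambient against 0 h in cat2 (-0.68, adjusted p = 0.0421) and GO5 (-0.65, adjusted p = 0.0408). The cat2 difference (-0.67) was also called with trend and robust variances (adjusted p = 0.0463), without dim features (adjusted p = 0.0374) and with the GAPDH covariate (adjusted p = 0.0494).

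With only the arrays compared, the 8 h ambient calls of ATMDAR2 (0.93, adjusted p = 0.908) in cat2 minus WT, of ATMDAR2 (0.96, adjusted p = 0.112), SAPX (0.42, adjusted p = 0.249) and GR1 (0.94, adjusted p = 0.166) in GO5 minus WT and of SAPX (0.48, adjusted p = 0.123) in GO5 minus cat2 were lost. So were ATMDAR2 (0.75, adjusted p = 0.0768) at ambient against high CO2 and SAPX (-0.49, adjusted p = 0.0729) at 8 h high against 0 h in cat2, SAPX at 8 h high (-0.49, adjusted p = 0.0699) and at 8 h ambient (0.48, adjusted p = 0.0685) against 0 h in GO5, and SAPX (0.53, adjusted p = 0.294) at ambient against high CO2 in WT. GR1 at 8 h ambient against 0 h gained calls in cat2 (-0.67, adjusted p = 0.00889) and GO5 (-0.56, adjusted p = 0.0276).

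Deviations of same-numbered arrays correlated over 0.1 in 50 of 108 pairs (-0.395 to 0.797, median 0.083). Different numbers gave 70 of 216 (median -0.0464). Of 27 arrays, 14 correlated best with their own number. The main fit had no block, and replicate effects were not tested. With the replicate block GR1 was called in cat2 minus WT at ambient (0.71, adjusted p = 0.0329), at 8 h ambient against 0 h in cat2 (-0.67, adjusted p = 0.00315) and GO5 (-0.56, adjusted p = 0.00877) and in the GO5 minus WT difference of CO2 responses (1.08, adjusted p = 0.01), and SAPX in GO5 minus WT at ambient was lost (0.42, adjusted p = 0.0502).

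Without WT ambient replicate 1 and cat2 ambient replicate 3, SAPX (0.39, adjusted p = 0.124) and GR1 (0.69, adjusted p = 0.0726) in GO5 minus WT, SAPX in GO5 minus cat2 (0.50, adjusted p = 0.0619) and SAPX in WT at ambient against high CO2 (0.56, adjusted p = 0.0799) were lost. Calls were gained by GR1 at 8 h ambient against 0 h in cat2 (-0.72, adjusted p = 0.0358) and by ATMDAR2 in the difference of CO2 responses of GO5 (1.01, adjusted p = 0.0466) and cat2 (1.20, adjusted p = 0.0493) from WT. The GAPDH covariate ended ATMDAR2 in cat2 minus WT (0.79, adjusted p = 0.0855) and GR1 in GO5 minus WT (0.75, adjusted p = 0.0855) and gave a call to SAPX in WT at 8 h high against 0 h (-0.52, adjusted p = 0.0495).

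Leaving out each array (the 2 left assumed to vary like other groups) gave these ranges. At 8 h ambient ATMDAR2 ran from 0.74 to 1.15 and GR1 from 0.46 to 1.00 in cat2 minus WT, SAPX from 0.33 to 0.55 and GR1 from 0.69 to 1.23 in GO5 minus WT and SAPX in GO5 minus cat2 from 0.40 to 0.53. At ambient against high CO2 SAPX ran from 0.48 to 0.72 in cat2 and from 0.41 to 0.63 in WT, and ATMDAR2 from 0.67 to 0.96 in GO5 and from 0.56 to 0.96 in cat2. Against 0 h SAPX ran from -0.64 to -0.37 in GO5 and from -0.57 to -0.33 in cat2 at 8 h high, and from 0.34 to 0.61 in GO5 at 8 h ambient. The GO5 minus WT difference of CO2 responses ran from 0.74 to 1.11 for ATMDAR2 and from 0.84 to 1.38 for GR1.

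With only the compared arrays, calls at 8 h ambient were 7 instead of 160 in cat2 minus WT, 206 instead of 4193 in GO5 minus WT and 64 instead of 1865 in GO5 minus cat2, 153 instead of 1085 in WT at ambient against high CO2, 1568 instead of 4279 in WT at 8 h ambient against 0 h, and 1, 13 and 6 instead of 22, 633 and 112 in the cat2 minus WT, GO5 minus WT and GO5 minus cat2 differences of responses. Leaving out each array gave 61 to 1072 in cat2 minus WT, 1926 to 5189 in GO5 minus WT, 569 to 2489 in GO5 minus cat2 and 2309 to 3846 in GO5, 1231 to 3478 in cat2 and 587 to 3247 in WT at ambient against high CO2. For the 3 differences of responses, in the same order, it gave 7 to 218, 190 to 1675 and 57 to 367. Without the arrays that stood apart there were 433 calls in cat2 minus WT at ambient, 4507 instead of 2563 in cat2 and 694 in WT at ambient against high CO2, and 239 and 279 in the cat2 minus WT and GO5 minus cat2 differences of responses, which had 9 and 44 without dim features. For GO5 minus WT that difference had 1030 with the replicate block and 1248 with the GAPDH covariate, which gave 1793 instead of 3042 in WT at 8 h high against 0 h.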

Other observations

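GR1 was highest on replicate 3 in each of the 9 groups. At 8 h high it lay above the higher of the other replicates by 0.80 log2 in GO5, 0.54 in cat2 and 0.59 in WT. Over all features, replicate 3 lay more than 0.5 log2 above both others in all 3 genotypes for 116 (0.51%) and below both others for 134. SAPX replicate 3 was above the others by 0.21 in GO5 and WT and differed by -0.49 from the higher of them in cat2, and for ATMDAR2 the corresponding values were -0.17 in GO5, -0.48 in cat2 and -0.19 in WT. Replicate 3 of these groups was therefore high for GR1 and not for ATMDAR2.

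PORB, listed as a rosette marker, was higher at both 8 h conditions than at 0 h in all 3 genotypes, with means of 10.59 at 8 h ambient, 11.31 at 8 h high and 8.34 at 0 h in GO5. RCA was lower at 8 h than at 0 h, at 12.81, 12.84 and 13.35 in the same groups. These are group means without a test.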
